A study of Mus musculus with 6 samples.

Results

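The genes described here encode translation initiation and elongation factors and the enzymes and binding proteins that carry their names. They were chosen by symbol, as genes beginning with Eif1 to Eif6 or Eef and read by a probe set annotated to that gene alone, leaving out the Eif2ak kinases and Eif2s3y. The rule gave 54 genes of 18193 with such a probe set, each represented by its brightest probe set over all 6 arrays. The 14 related genes without a probe set of their own, among them Eif2s1, Eif1, Eif3g, Eif4g1 and Eef1g, were left out. RNA came from mouse bone marrow cells, sorted and carrying MLL-AF9, which joins parts of MLL and AF9 and drives acute leukaemia. In 3 samples the cells were MLL-AF9/Mn1null, with Mn1 deleted by CRISPR-Cas9, and in 3 they were MLL-AF9/Mn1wt, with Mn1 intact. The Mn1 protein acts with transcription factors, and the question is how transcripts differ without it. Both groups carried an EGFP control vector and were grown with mIL3, hIL6 and mSCF, the last being stem cell factor. The sources used here do not state whether a group was a single clone or its samples separate cultures, so the p-values cover the spread among these samples alone, and that spread may be technical.

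Protein synthesis starts when eIF2, carrying GTP, delivers the initiator methionine tRNA to the small ribosomal subunit together with eIF1, eIF1A, eIF3 and eIF5. The eIF4 factors bind the mRNA cap and unwind the leader for scanning, eIF5B joins the large subunit, and eIF2B reloads eIF2 with GTP for another round. eEF1A then brings each aminoacyl-tRNA, the eEF1B subunits recharge eEF1A, and eEF2 moves the ribosome along. In blood cells this machinery is regulated by growth factors through mTOR, which controls the eIF4E-binding proteins and the eEF2 kinase, and by stress through kinases of eIF2.

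Each array gave 1 log2 signal per probe set, and array medians lay between 5.16 and 5.22. Pairs of arrays correlated at 0.997 to 0.998 within a group and at 0.968 to 0.969 across groups. The Mn1 probe set read 4.13 ± 0.071 in Mn1null and 4.35 ± 0.20 in Mn1wt (log2, SD, n = 3 each), a difference that did not pass (adjusted p = 0.121). Where that probe set lies relative to the deletion was not known here, so it checks nothing. All 10 myeloid progenitor markers passed the filter on low signal, with group means of 9.15 to 14.41, whereas T and NK markers reached at most 6.43 (5 of 6 past the filter) and B cell markers 5.74 (2 of 3). The mean log2 level of 4 erythroid markers was 5.94 to 5.99 on Mn1null arrays and 5.47 to 5.49 on Mn1wt arrays. Of these 4, 3 passed the filter, Klf1 read 7.89 in Mn1null and 6.82 in Mn1wt, and haemoglobin Hba-a1 was below the filter. For 6 stromal and endothelial markers, 5 past the filter, it was 5.52 to 5.56 on Mn1null arrays and 5.30 to 5.33 on Mn1wt arrays, and Pecam1 read 10.84 in Mn1null and 9.06 in Mn1wt. Bacterial transcripts of the kind added before labelling also differed: their 8 probe sets for the 5′ end averaged 6.47 ± 0.059 in Mn1null and 7.32 ± 0.10 in Mn1wt (SD, n = 3 each), while the middle sets differed by -0.49 and the 3′ sets by -0.30. The part of these markers and controls in the results below was not tested.

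All 54 translation factor genes passed the filter on low signal, and more of them were lower than higher in Mn1null. With limma and an adjusted p under 0.05, 27 fell (50%), 8 rose (14.8%) and 19 stayed short of the threshold. Of all 14680 genes tested, 48.8% were called, 25.6% lower and 23.2% higher. Among the 836 genes whose mean signal was at or above the median of the translation factors (11.52), which include the brighter translation factors themselves, 42.1% fell and 24.0% rose. The median difference was -0.16 for the 54 genes, -0.079 for the bright genes and -0.0053 for all genes tested (log2, Mn1null minus Mn1wt). The differences were small: they ran from -0.80 for Eif2b4 to 0.44 for Eef2, 2 genes differed at least 1.5-fold (Eif2b4 and Eif2b3, both lower), and 0 differed at least 2-fold. Among all genes tested, 15.0% differed by that 1.5-fold or more. The Mn1null and Mn1wt arrays did not overlap for 44 of the 54 genes, 33 of them lower and 11 higher in Mn1null. Of all genes, 57.7% did not overlap, 30.1% lower and 27.6% higher. Among the 836 bright genes, 430 were lower without overlap and 264 higher. In either direction 66.1% of these bright genes were called, and 64.8% of the 54. The counts by role below cover few genes each and are to be read beside these shares. Bulk arrays cannot tell a smaller number of expressing cells from less RNA per cell.

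**Figure D1:**
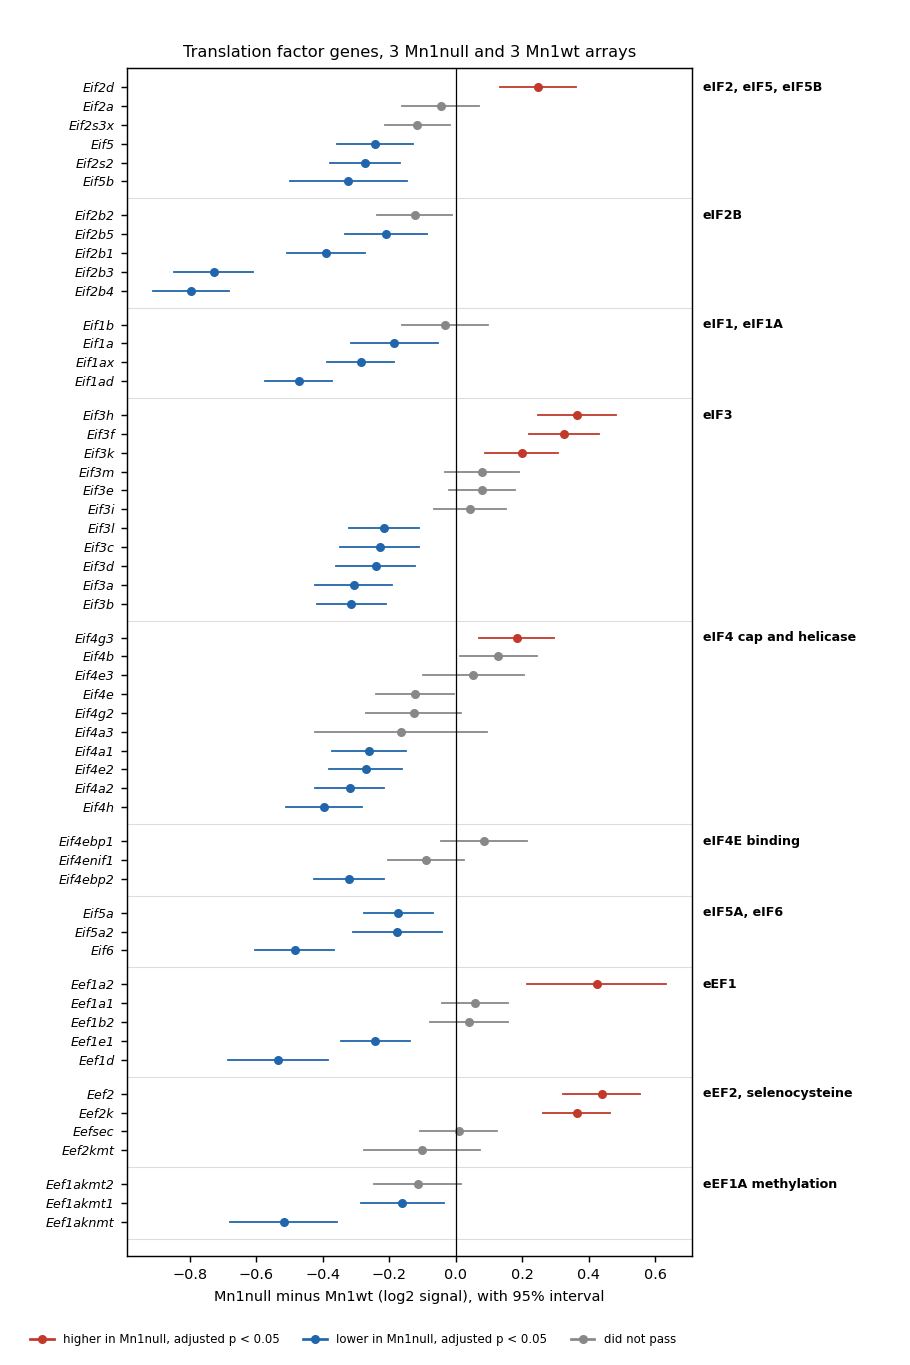
Difference in log2 signal between Mn1null and Mn1wt for the 54 genes, ordered by role, with the 95% interval of the limma model (n = 3 per group). Points right of 0 are higher in Mn1null. All 5 eIF2B subunits lie left of 0, the eIF3 subunits lie on both sides, and Eef2 and Eef2k lie to the right.

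The genes that rose were Eef2, Eef1a2, Eef2k, Eif3h, Eif3f, Eif2d, Eif3k and Eif4g3. Promoter windows of RefSeq (GRCm38.p6, 250 bases before and 50 after an annotated start) were found for 43 of the 54 genes. They were searched for the E-box CACGTG, which reads the same on both strands and is known to be bound by MYC among other factors. A stretch of at least 8 pyrimidines beginning with C and covering the first annotated base was also sought. It resembles the start of terminal oligopyrimidine (TOP) mRNAs, whose translation follows mTOR. At least 1 window held the E-box in 12 of the 43 genes (27.9%), against 10.95% of the 11790 tested genes with a window, base composition not being matched. By call these were 4 of 7 genes that rose, 6 of 22 that fell and 2 of 14 that did not pass. Shares by call over all tested genes were not computed. The pyrimidine stretch was present in 5 of the 43 (11.6%), Eef1a1, Eif2b5, Eif2s3x, Eif3f and Eif3l, against 4.16% of the tested genes. Over all 32851 windows the shares were 7.15% and 3.22%. A match of letters is not evidence of binding, and annotated starts can lie some bases from the true ones. Hence a missing stretch does not show that an mRNA lacks a TOP start.

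The promoters of 6 genes described below are shown by 130 bases before and 20 after the annotated start, 5′ to 3′. They were picked to set 3 genes that rose, each with the E-box, beside 3 that fell, of which only Eif4h held it. The 6 do not stand for the rest. Eif3k also rose and held the E-box, whereas Eef1a2, Eif2d and Eif4g3 rose without it. Eef1aknmt, Eif5a2, Eif3a, Eif4a1 and Eif5a fell and held it. Capitals mark the E-box and, in Eif3f, also the pyrimidine stretch of 15 bases. Eef2 lies at chr10:81176501-81176650, plus strand, and its E-box begins 43 bases before the start. Eef2k lies at chr7:120842701-120842850, plus strand, with the E-box at 31 bases. Eif3f lies at chr7:108934285-108934434, plus strand, with the E-box at 68 bases and the pyrimidine stretch beginning 4 bases before the start. Eif4h lies at chr5:134639390-134639539, minus strand, with the E-box at 96 bases. Eif2b4 (chr5:31193120-31193269, minus strand) and Eif1ad (chr19:5366683-5366832, plus strand) held neither motif.
Eef2: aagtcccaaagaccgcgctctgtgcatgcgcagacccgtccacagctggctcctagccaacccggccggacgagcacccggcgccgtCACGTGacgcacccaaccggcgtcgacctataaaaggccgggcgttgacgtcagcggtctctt
Eef2k: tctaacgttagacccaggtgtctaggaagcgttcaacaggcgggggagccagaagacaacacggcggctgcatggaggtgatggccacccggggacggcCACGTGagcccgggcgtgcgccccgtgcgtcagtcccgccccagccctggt
Eif3f: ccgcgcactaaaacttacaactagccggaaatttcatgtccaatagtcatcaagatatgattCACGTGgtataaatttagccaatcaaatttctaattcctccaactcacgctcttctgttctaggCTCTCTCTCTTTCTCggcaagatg
Eif4h: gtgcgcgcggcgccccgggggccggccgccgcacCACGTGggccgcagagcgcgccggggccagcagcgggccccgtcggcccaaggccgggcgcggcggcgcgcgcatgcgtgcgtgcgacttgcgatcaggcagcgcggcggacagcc
Eif2b4: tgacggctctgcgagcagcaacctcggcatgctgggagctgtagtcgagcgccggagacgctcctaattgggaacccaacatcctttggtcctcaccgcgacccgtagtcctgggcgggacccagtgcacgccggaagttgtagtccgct
Eif1ad: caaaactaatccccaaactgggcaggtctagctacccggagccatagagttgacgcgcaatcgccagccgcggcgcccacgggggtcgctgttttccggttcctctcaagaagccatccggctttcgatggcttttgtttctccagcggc

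Genes of eIF2B, the exchange factor that reloads eIF2 and the point at which stress kinases slow initiation, were lower in Mn1null: 4 of 5 fell, and the fifth, Eif2b2, differed by -0.12 (adjusted p = 0.0657). Eif2b4, the delta subunit of the regulatory part, read 9.48, 9.51 and 9.58 on Mn1null arrays, against 10.30, 10.35 and 10.32 on Mn1wt arrays. Eif2b3, the gamma subunit of the catalytic part, read 9.50, 9.45 and 9.55 on Mn1null arrays, against 10.25, 10.18 and 10.26 on Mn1wt arrays. Every Mn1null array lay below every Mn1wt array for both genes, with a gap many times the spread within a group. Eif2b4 was 1.74-fold lower (log2 -0.80 ± 0.048, SE, adjusted p = 1.84e-05), and Eif2b3 was 1.66-fold lower (-0.73 ± 0.050, adjusted p = 3.29e-05). Eif2b1, the alpha subunit, fell by 0.39 ± 0.049, and Eif2b5, the epsilon subunit that carries the exchange activity, fell by 0.21 ± 0.052. The groups did not overlap for any of the 5 subunits, where 57.7% of all genes tested did not overlap. Among the 836 bright genes, 430 were lower without overlap and 264 higher. Of all genes tested 25.6% fell, and 42.1% of those at or above the median signal of the translation factors.

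Among the factors that carry and place the initiator tRNA, 3 of 6 tested genes fell and 1 rose. Eif5b, the GTPase of subunit joining, read 9.64, 9.78 and 9.80 on Mn1null arrays, against 9.96, 10.04 and 10.18 on Mn1wt arrays. Eif2s2, the beta subunit of eIF2, read 12.89, 12.92 and 12.93 on Mn1null arrays, against 13.15, 13.22 and 13.19 on Mn1wt arrays. The Mn1null arrays were lower without overlap for both, with more spread for Eif5b. The differences were -0.32 ± 0.074 (SE, adjusted p = 0.00920) for Eif5b and -0.27 ± 0.044 (adjusted p = 0.00185) for Eif2s2. A dimmer probe set of Eif5b gave -0.091 and did not pass (adjusted p = 0.376), and another fell by 0.43 (adjusted p = 0.00579). Eif5, which triggers GTP hydrolysis by eIF2, fell by 0.24. Eif2s3x, the X-linked gene of the gamma subunit, differed by -0.12 without overlap and just missed the threshold (adjusted p = 0.0544). Eif2d, which acts on ribosomes after termination and can deliver tRNA without GTP, rose by 0.25 ± 0.048 (adjusted p = 0.00439). The 3 probe sets of Eif2d designed for a single transcript were dimmer and did not pass, at -0.027 on the brightest, 0.21 and 0.051, and a further probe set rose by 0.42 (adjusted p = 9.25e-04). Eif2a, an alternative initiator tRNA carrier, differed by -0.046, with overlapping groups.

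Of 4 genes related to eIF1 and eIF1A, which keep the scanning ribosome open for start codon recognition, 3 fell. Eif1ad, a nuclear protein with an eIF1A-like domain, read 10.82, 10.86 and 10.86 on Mn1null arrays, against 11.30, 11.33 and 11.32 on Mn1wt arrays. Eif1ax, the X-linked eIF1A gene, read 11.81, 11.82 and 11.80 on Mn1null arrays, against 12.07, 12.12 and 12.10 on Mn1wt arrays. Both genes were tightly grouped and lower on every Mn1null array, by 0.47 ± 0.043 (SE, adjusted p = 1.12e-04) and 0.29 ± 0.042 (adjusted p = 0.00119). Of the probe sets of Eif1ax designed for a single transcript, the brighter gave -0.075 and did not pass (adjusted p = 0.314). The dimmer fell by 0.60 (adjusted p = 9.53e-04). Eif1a fell by 0.19, a call lost without any 1 of 4 arrays (Mn1null replicates 2 and 3, Mn1wt replicates 1 and 3), with differences of -0.20 to -0.14. Eif1b differed by -0.032 with overlap.

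The subunits of eIF3, the large scaffold that holds the small ribosomal subunit open and contacts the mRNA, moved in both directions. Of 11 tested, 5 fell, 3 rose and 3 did not pass. Both subunits with an MPN domain rose. Eif3h read 12.78, 12.81 and 12.89 on Mn1null arrays, against 12.45, 12.50 and 12.43 on Mn1wt arrays. Eif3f read 13.42, 13.46 and 13.39 on Mn1null arrays, against 13.09, 13.09 and 13.11 on Mn1wt arrays. All Mn1null values lay above all Mn1wt values for each, with differences of 0.36 ± 0.050 (SE, adjusted p = 8.28e-04) and 0.33 ± 0.044 (adjusted p = 7.84e-04). Eif3k, a PCI-domain subunit that budding yeast lacks, rose by 0.20 ± 0.046 (adjusted p = 0.00996).

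The subunits that fell were Eif3a and Eif3c, the large PCI-domain subunits, Eif3b, which binds Eif3i and Eif3g, Eif3d, a cap-binding subunit, and Eif3l, a PCI-domain subunit. Their differences lay between -0.31 (Eif3b) and -0.22 (Eif3l), with adjusted p of at most 0.00761. None of the 5 had overlapping groups, and the same held for all 27 genes that fell. Of all genes tested, 57.7% did not overlap. Eif3e, Eif3m and Eif3i differed by 0.078, 0.079 and 0.042 and did not pass, and only Eif3e was free of overlap among them. Hence the PCI-domain genes alone included falls (Eif3a, Eif3c, Eif3l), a rise (Eif3k) and genes that did not pass (Eif3e, Eif3m). With its probe sets averaged, Eif3d no longer passed (-0.13, adjusted p = 0.0724).

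**Figure D2:**
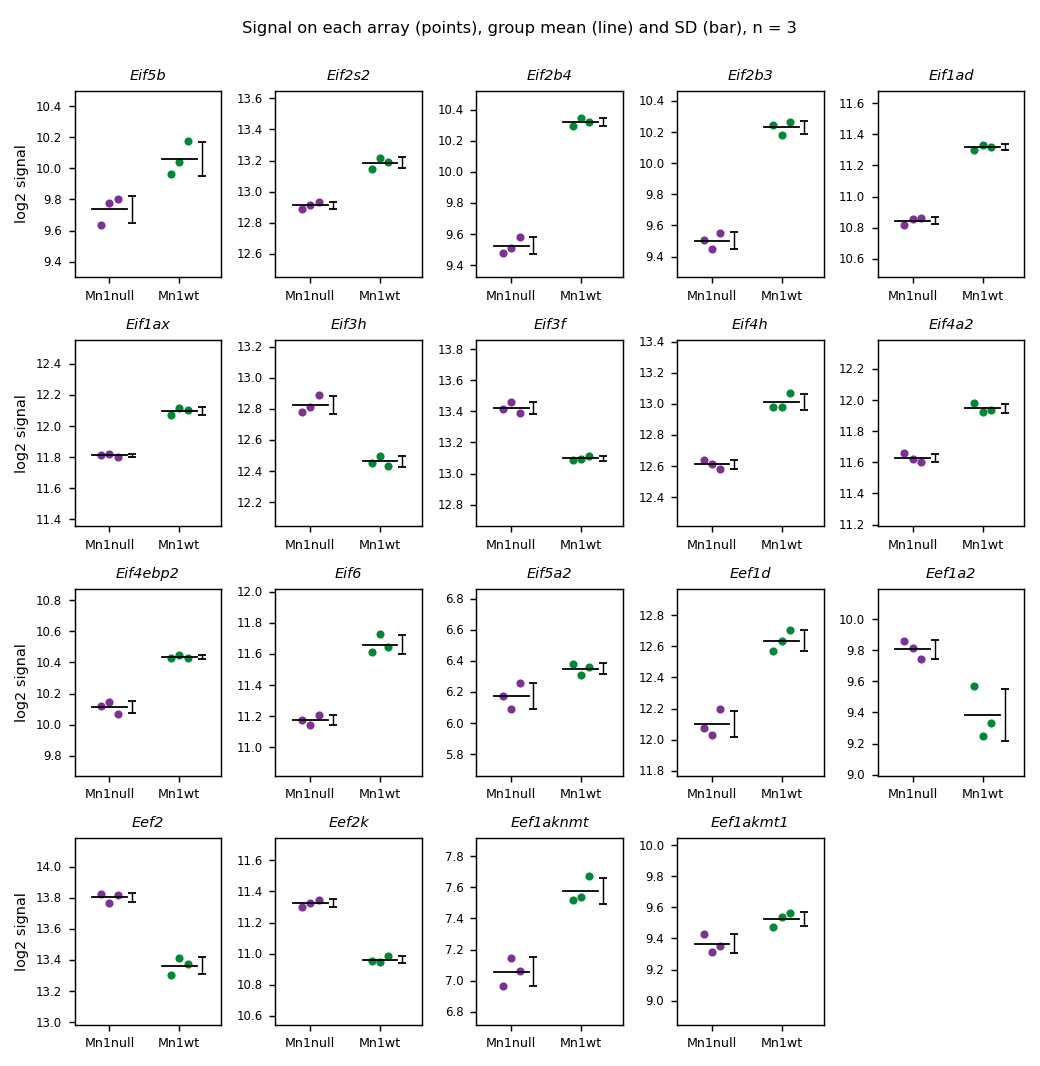
Log2 signal on each of the 3 Mn1null (left) and 3 Mn1wt (right) arrays for the genes with the strongest called differences of each role, with the group mean and SD. The 19 panels were picked for called differences, and none of the 27 genes that fell or 8 that rose had overlapping groups. Of all genes tested, 57.7% did not overlap. Eef1a2 shows the widest spread, among its Mn1wt arrays.

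Of 10 tested genes named after eIF4, those for proteins that bind eIF4E apart, 4 fell and 1 rose. Eif4h, an RNA-binding helper of the eIF4A helicase, read 12.64, 12.61 and 12.58 on Mn1null arrays, against 12.98, 12.98 and 13.07 on Mn1wt arrays. The helicase gene Eif4a2 read 11.66, 11.62 and 11.60 on Mn1null arrays, against 11.98, 11.92 and 11.94 on Mn1wt arrays. Neither gene had overlapping groups, and the differences were -0.40 ± 0.048 (SE, adjusted p = 4.58e-04) and -0.32 ± 0.044 (adjusted p = 8.48e-04). Eif4a1, the main helicase, fell by 0.26, and Eif4e2, a cap-binding protein that can repress translation, fell by 0.27. The probe sets of Eif4e2 differed in sign. The brightest of those designed for a single transcript gave 0.145 and did not pass (adjusted p = 0.0730). Another of that design gave 0.19 and did not pass, and the remaining one fell by 0.41 (adjusted p = 0.0115). A probe set shared by several transcripts of Eif4e2 fell by 0.51 (adjusted p = 3.19e-04). Eif4g3, a scaffold between cap and ribosome, rose by 0.18, a call lost without any 1 of 3 arrays (Mn1null replicate 1, Mn1wt replicates 1 and 2), at 0.17 to 0.18.

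The cap-binding protein gene Eif4e itself differed by -0.12 on its brightest probe set (adjusted p = 0.0782), where the groups did not overlap. On 2 other probe sets of Eif4e the differences were -0.46 (adjusted p = 2.49e-04) and -0.64 (adjusted p = 1.07e-04). Eif4b, which stimulates the helicase, differed by 0.13 and did not pass (adjusted p = 0.0696), while another of its probe sets rose by 0.25 (adjusted p = 0.00695). Eif4g2, a scaffold without the eIF4E site, differed by -0.13 (adjusted p = 0.126), and 2 other probe sets passed at -0.27 and -0.37. Eif4e3 differed by 0.053 with overlap, and Eif4a3, on a dim probe set near the filter level of 4.07, by -0.17 (adjusted p = 0.258).

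Of the 3 genes for proteins that bind eIF4E, only Eif4ebp2 passed. Eif4ebp2, a repressor released from eIF4E when mTOR phosphorylates it, read 10.12, 10.15 and 10.07 on Mn1null arrays, against 10.43, 10.45 and 10.43 on Mn1wt arrays. The values did not overlap and the difference was -0.32 ± 0.044 (SE, adjusted p = 8.39e-04). Its relative Eif4ebp1 differed by 0.085 with overlap (adjusted p = 0.249), although 2 other probe sets of it rose by 0.23 (adjusted p = 0.0125) and 0.19 (adjusted p = 0.0360). Eif4enif1, the transporter that carries eIF4E into the nucleus, differed by -0.090 (adjusted p = 0.170).

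All 3 tested genes of eIF5A and eIF6 fell. The share that fell was 25.6% of all genes tested and 42.1% of the 836 bright genes. Eif6, which keeps free large subunits from joining and takes part in their assembly, read 11.18, 11.14 and 11.21 on Mn1null arrays, against 11.61, 11.73 and 11.64 on Mn1wt arrays. Eif5a2, the less widely expressed paralog of Eif5a, read 6.17, 6.09 and 6.26 on Mn1null arrays, against 6.38, 6.31 and 6.36 on Mn1wt arrays. The gap between groups was wide for Eif6 and narrow for Eif5a2. Eif6 fell by 0.48 ± 0.050 (SE, adjusted p = 2.17e-04), and by less on its dimmer probe set, the one designed for a single transcript (-0.19, adjusted p = 0.0444). Eif5a2 fell by 0.18 ± 0.056 (adjusted p = 0.0368), a call lost when any single array but Mn1null replicate 3 was left out (-0.20 to -0.14 in these 5 cases), when its probe sets were averaged (-0.090, adjusted p = 0.227) and with an intensity trend and robust eBayes. Eif5a, the hypusine-bearing factor that helps ribosomes through difficult peptide bonds, fell by 0.17 ± 0.044 (adjusted p = 0.0143).

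Of 5 tested genes named after eEF1, its methyltransferases apart, 2 fell, 1 rose and 2 did not pass. Eef1d, the delta subunit of the exchange factor, read 12.07, 12.03 and 12.20 on Mn1null arrays, against 12.57, 12.63 and 12.70 on Mn1wt arrays. Eef1a2, the paralog of Eef1a1 known from muscle and neurons, read 9.86, 9.81 and 9.74 on Mn1null arrays, against 9.57, 9.25 and 9.33 on Mn1wt arrays. Both were free of overlap, in opposite directions, at -0.54 ± 0.063 (SE, adjusted p = 3.92e-04) and 0.42 ± 0.088 (adjusted p = 0.00605). Eef1a1, the main carrier of aminoacyl-tRNA, averaged 14.78 in Mn1null and 14.72 in Mn1wt, without overlap and close to the highest value in the table (15.03). It differed by 0.059 and did not pass (adjusted p = 0.296), as did Eef1b2, the beta subunit of the exchange factor, at 0.039 with overlap. Eef1e1, a scaffold protein of the multisynthetase complex, fell by 0.24 ± 0.044.

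Of 4 tested genes around translocation and selenocysteine delivery, 2 rose and 0 fell. Eef2, the translocase, read 13.82, 13.77 and 13.82 on Mn1null arrays, against 13.31, 13.41 and 13.37 on Mn1wt arrays. Eef2k, the kinase that phosphorylates and inhibits eEF2, read 11.30, 11.33 and 11.35 on Mn1null arrays, against 10.95, 10.94 and 10.99 on Mn1wt arrays. Each Mn1null array was above each Mn1wt array for both genes. Eef2 rose 1.36-fold (log2 0.44 ± 0.049, SE, adjusted p = 3.01e-04), and Eef2k rose 1.29-fold (0.36 ± 0.043, adjusted p = 3.98e-04). Another probe set of Eef2k also gave 0.36, and the dimmest gave -0.087 and did not pass (adjusted p = 0.437). Eefsec, which delivers selenocysteine tRNA, differed by 0.0085 (95% interval -0.11 to 0.12), and Eef2kmt, a methyltransferase of eEF2, by -0.10, both with overlap.

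Of 3 tested genes for methyltransferases of eEF1A, 2 fell. Eef1aknmt read 6.97, 7.15 and 7.06 on Mn1null arrays, against 7.52, 7.54 and 7.67 on Mn1wt arrays. Eef1akmt1 read 9.43, 9.31 and 9.35 on Mn1null arrays, against 9.48, 9.54 and 9.56 on Mn1wt arrays. The separation was clear for Eef1aknmt, at -0.52 ± 0.068 (SE, adjusted p = 6.70e-04), and slight for Eef1akmt1, at -0.16 ± 0.052 (adjusted p = 0.0390). The call of Eef1akmt1 was lost without any 1 of 4 arrays (Mn1null replicates 2 and 3, Mn1wt replicates 2 and 3), where the lowest and highest differences over all 7 settings that lost it were -0.17 and -0.13, yet 2 of its other probe sets passed at -0.46 and -0.33. Eef1akmt2 differed by -0.12 (adjusted p = 0.133).

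Several genes were read by more than 1 probe set, and the probe sets differed more in size than in direction. The 54 genes had 141 probe sets, of which 133 passed the filter. With each probe set as a feature of its own, 61 of these fell, 13 rose and 59 did not pass. Of all 31526 probe sets, 22.2% fell and 19.3% rose, signal not being matched. The 133 are repeated reads of the same 54 genes, so genes with many probe sets weigh more in these counts. No gene had called probe sets of opposite sign. The 5 genes that did not pass on the brightest probe set but were called on another were Eif2b2, Eif4e and Eif4g2, all lower, and Eif4b and Eif4ebp1, both higher.

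The widest gap was in Eif4ebp2, where another probe set read 5.80 in Mn1null and 7.44 in Mn1wt, a difference of -1.64 ± 0.20 (SE, adjusted p = 6.20e-04) against -0.32 on the brightest. Eif3a differed by -1.28 ± 0.15 on its least bright probe set (adjusted p = 5.46e-04) and by -0.28 to -0.31 on the other 3. For Eif5 a probe set gave -0.82 (adjusted p = 7.35e-05) against -0.24 on the brightest, for Eif1ad -0.85 against -0.47, for Eif2s2 -0.69 against -0.27, for Eif3c -0.63 against -0.23, and for Eif1ax -0.60 against -0.29. When the probe sets of a gene were averaged, called differences moved by over 1.5 times, yet still passed, for Eif3a (-0.54), Eif1a (-0.31), Eef1aknmt (-0.26), Eef1akmt1 (-0.25), Eif4e2 (-0.17), Eef2k (0.21) and Eif3h (0.15). In the same arrays the labelling controls differed by -0.85 at the 5′ end and -0.30 at the 3′ end. Where the probe sets lie along the transcripts was not known here, and the part of that gradient in these gaps was not tested.

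**Figure D3:**
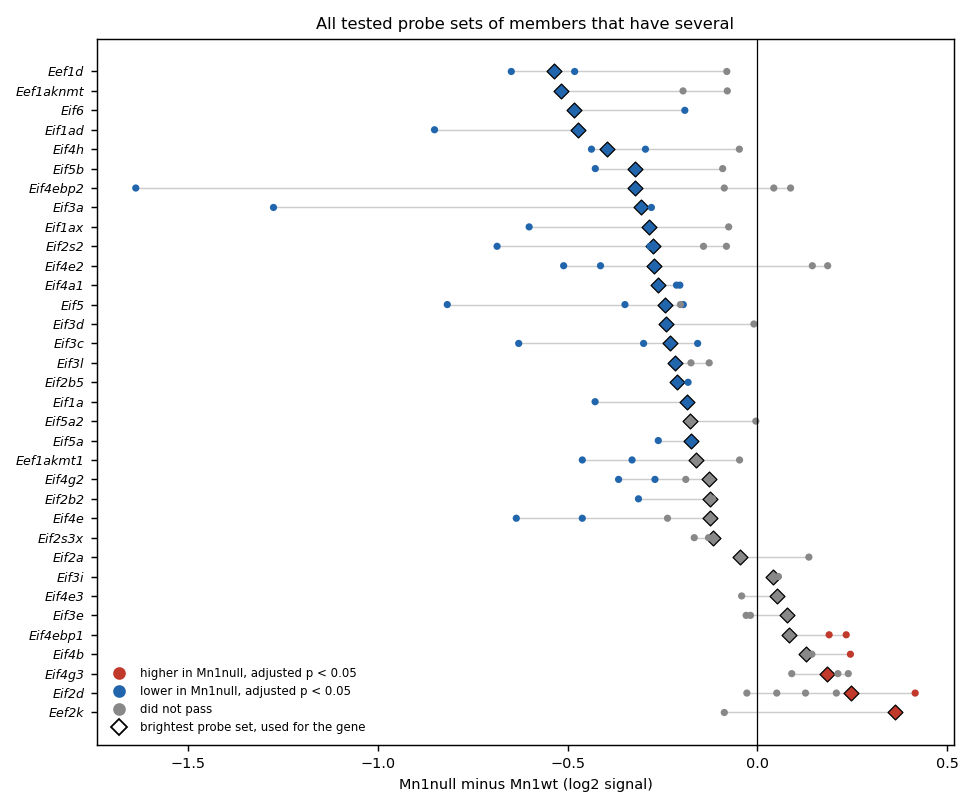
Difference in log2 signal between Mn1null and Mn1wt for every tested probe set of genes with several, ordered by the brightest one (diamond). Colours give the calls with all probe sets tested as separate features, in which Eif5a2 and Eef1akmt1 did not pass on their brightest probe sets. Eif4ebp2 and Eif3a each have a probe set far to the left of the others.

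**Figure D4:**
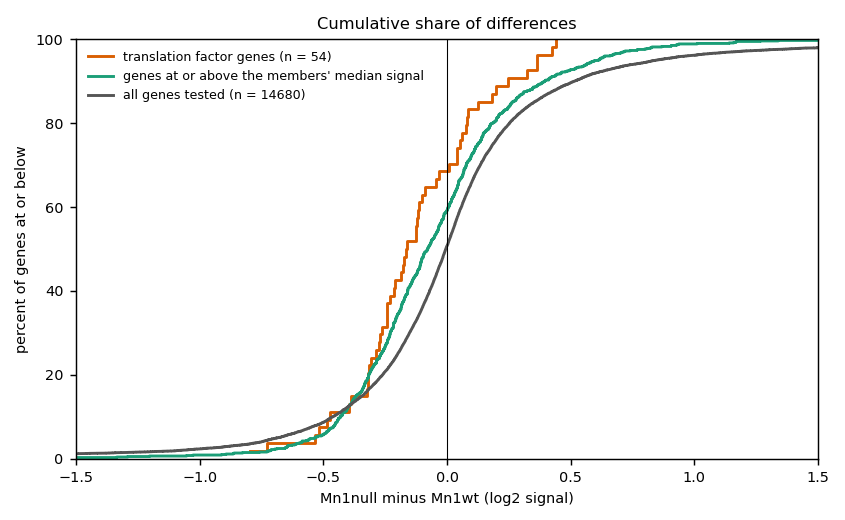
Cumulative share of genes by difference in log2 signal (Mn1null minus Mn1wt) for the 54 translation factor genes, the 836 genes at or above their median signal and all 14680 genes tested. The translation factor curve lies left of both others around 0, with medians of -0.16, -0.079 and -0.0053.

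Further genes of translation and its control, outside the factor families, were taken from 4 lists. Of 43 with a value, 17 were called lower, 15 higher and 11 neither. Among all genes tested, 25.6% were called lower and 23.2% higher. In either direction 48.8% of all genes tested were called, and 66.1% of the 836 bright genes. Counts of the single lists, here and below, cover few genes each and are to be read beside these shares. The median difference of the 43 genes was -0.069. Among regulators of eIF2 phosphorylation, 5 of 10 rose and 3 fell. Eif2ak3, which encodes the endoplasmic reticulum stress kinase PERK, rose by 0.61 ± 0.044 (SE, adjusted p = 4.06e-05), and Ppp1r15a, the stress-induced phosphatase subunit GADD34 that reverses it, rose by 0.79 ± 0.065 (adjusted p = 7.49e-05). Eif2ak1, the haem-regulated kinase, fell by 0.30, and Ppp1cc, a catalytic phosphatase subunit, by 0.15, a call lost without any 1 of 4 arrays (Mn1null replicates 1 and 3, Mn1wt replicates 1 and 2), at -0.16 to -0.14.

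Of 13 genes of mTOR and MNK signalling, 6 rose and 4 fell. Mknk1, a kinase of eIF4E, rose by 0.70 ± 0.051 (SE, adjusted p = 4.26e-05), and Pdcd4, an inhibitor of the eIF4A helicase, by 0.54 ± 0.045 (adjusted p = 8.04e-05). Rheb, the GTPase that activates mTOR, fell by 0.38 ± 0.047, and Larp1, which binds TOP mRNAs, by 0.34 ± 0.055. Among 9 genes of poly(A) binding and accessory helicases, 2 rose and 4 fell. Paip2, which keeps poly(A)-binding protein from the mRNA, rose 1.91-fold, to 12.54 ± 0.022 in Mn1null, against 11.61 ± 0.068 in Mn1wt (SD, n = 3 each). Its relative Paip2b rose by 0.23, a call lost when its probe sets were averaged (0.086), with median centring (adjusted p = 0.0554) and without any array but Mn1wt replicate 3, at 0.19 to 0.23. Dhx29, a helicase for structured leaders, fell by 0.44, and Larp4, a poly(A)-associated protein, by 0.34.

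In the list of hypusine synthesis, release and recycling, 6 of 11 fell and 2 rose. Dhps, the first enzyme of hypusine synthesis on eIF5A, fell by 0.73 ± 0.052 (SE, adjusted p = 3.77e-05), to 8.92 ± 0.036 in Mn1null, against 9.64 ± 0.063 in Mn1wt (SD, n = 3 each). Abce1, which splits ribosomes after termination, fell by 0.45. Gspt2, a paralog of the release factor gene Gspt1, rose by 0.99 ± 0.056 (adjusted p = 1.33e-05), whereas Gspt1 fell by 0.30. With probe sets averaged, Gspt2 gave 0.55, Mknk1 0.29 and Eif2ak1 -0.18, and all 3 still passed. Mcts1, the partner of Denr in reinitiation, rose by 0.17, and Denr fell by 0.39. The call of Mcts1 was lost without Mn1null replicate 1 or 3 or Mn1wt replicate 3, at 0.14 to 0.17.

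**Figure D5:**
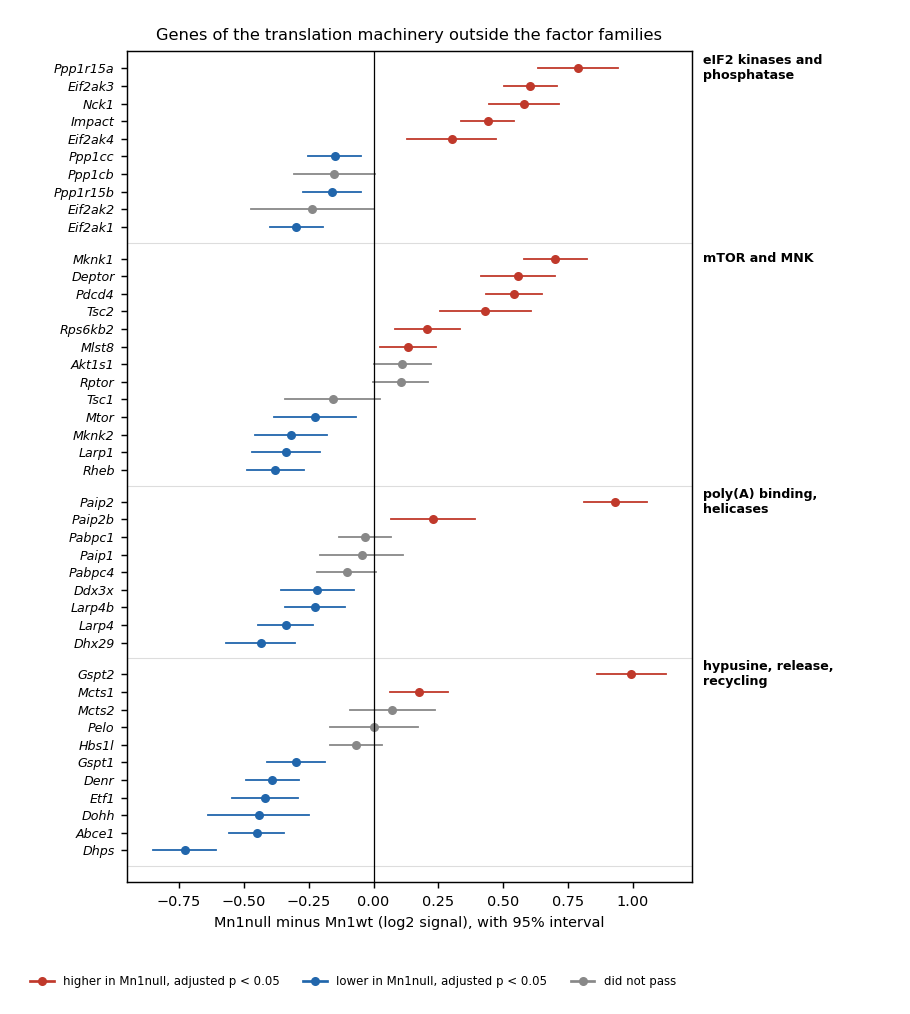
Difference in log2 signal between Mn1null and Mn1wt, with 95% intervals (n = 3 per group), for 43 genes of translation and its control from 4 lists. Gspt2, Paip2 and Ppp1r15a lie farthest right and Dhps farthest left.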

How the data were processed

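RNA of 3 Mn1null and 3 Mn1wt samples was hybridised to 1-colour Affymetrix mouse arrays. The authors deposited log2 signals, 1 per probe set and array, and the submitters' processing notes name RMA. RMA equalises array distributions and compresses low signals. Its version was not given in the sources used here. Of 45101 probe sets, 64 controls were set aside. The platform annotation gave 34945 of the rest 1 gene, 932 several and 9160 none.

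Each of 18193 genes was represented by its brightest probe set. Genes under the 30th percentile of signal (log2 4.07) were left out, which left 14680. The difference (Mn1null minus Mn1wt) was tested 2-sided, with no block, by limma 3.58.1 (lmFit, eBayes; R 4.3.3), and p-values were adjusted by Benjamini-Hochberg over all 14680 genes, with 0.05 as the threshold. The steps were tested on simulated data. The number of arrays limits the precision. A fold is 2 to the power of a difference.

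The genes, lists, motifs and alternatives were chosen with earlier results of these data known. Values by array were given for up to 2 called genes per role with the largest differences, and other lists contributed, in each direction, at most the 2 genes with the smallest p. Gspt1 and Denr were named after their values were seen. Alternatives changed the choice of probe set, the filter, the scaling (quantile or median), eBayes (trend and robust), the block, the threshold (0.01) and the arrays (each left out in turn). Tests of single probe sets were added after seeing the data. Adjusted p given for probe sets other than the brightest of a gene come from the fit of all 31526 probe sets. Promoter sequences are those of RefSeq. Drawings used matplotlib 3.10.9.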

Additional observations from a re-analysis of the deposited data

How the results depend on the processing

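Counts of genes that fell and rose stayed within 1.5 times their main values under the alternatives run: 22 to 30 translation factors fell and 6 to 11 rose. Of the 35 called translation factors, 27 kept their call and direction at a threshold of 0.05 in every setting that measured them, 8 lost it in at least 1 (Eef1akmt1, Eif1a, Eif1ax, Eif2d, Eif3d, Eif4e2, Eif4g3 and Eif5a2), and 9 others gained a call in at least 1. The median difference of members of the group was -0.16, became -0.148 with quantile normalization and lay between -0.180 and -0.145 when single arrays were left out (lowest without Mn1null replicate 1, highest without Mn1wt replicate 3). On the brightest probe set designed for a single transcript, Eif4e2 gave 0.145 and Eif2d -0.027, while dimmer ones of that design gave -0.41 for Eif4e2 and 0.21 and 0.051 for Eif2d. With the mean of probe sets, Eif3e gave -0.012 and Eif3m -0.077. Eif1b gave 0.016 with quantile normalization. Eefsec gave -0.0011 with median centring and -0.0097 to 0.039 without single arrays. In called genes, single tested probe sets of opposite sign, none of which passed, gave -0.087 for Eef2k, -0.027 for Eif2d, 0.145 and 0.19 for Eif4e2, and 0.044 and 0.088 for Eif4ebp2. The cause was not tested. Samples shared only a number: deviations of same-numbered arrays correlated at -0.039 to 0.11, and 2 of 6 arrays correlated best with their own number. With the replicate block 25 translation factors fell and 8 rose, and Eif1a and Eef1akmt1 no longer passed. Signals near the floor or the top of the scale limit what differences can be seen.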

Other observations

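Left out of the counts above were 8 probe sets annotated to several genes, an initiation or elongation factor among them. A probe set shared by Eif4a3 and Gm5576 read 11.75 ± 0.035 in Mn1null and 12.29 ± 0.015 in Mn1wt (log2, SD, n = 3 each), a difference of -0.53 (adjusted p = 1.64e-04). The probe set of Eif4a3 alone was near the floor. The 3 probe sets shared by Eif3j1 and Eif3j2, which encode a loosely bound eIF3 subunit, differed by -0.31, -0.32 and -0.28, with adjusted p of 0.00476, 0.00405 and 0.00344. The brighter of 2 probe sets shared by Eef1g, the gamma subunit of the eEF1 exchange factor, and Gm29753 differed by -0.046 (adjusted p = 0.506), and the dimmer by -0.38 (adjusted p = 0.0309), near the filter level. A probe set shared by Ankhd1 and Eif4ebp3 differed by -0.083 (adjusted p = 0.309). The last, shared by Eif1a, Gm4027 and BB287469, was under the filter and not tested. These values cannot be assigned to a single gene, and their adjusted p come from the fit of all probe sets.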
